A study of Mus musculus with 8 samples.

Results

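The 47 genes described here are mouse nuclear receptors, chosen by symbol as members of that gene superfamily and not by their values, out of 23358 genes in the RNA-seq table. Of these, 26 had an RPKM (reads scaled to gene length and to library size) of 1 or more in 2 or more of the 8 libraries and were tested, 21 stayed under that filter, and 2 of the 21 had no read in any library. Nuclear receptors are transcription factors that carry a DNA-binding domain and, in most members, a pocket for a small lipid-soluble ligand such as retinoic acid, vitamin D, thyroid hormone, a steroid or a fatty acid. Many of them bind DNA as a dimer with a retinoid X receptor (RXR), and several recruit the Mediator complex through its subunit MED1 once their ligand is bound. The vitamin D receptor and RXR are known to be needed for postnatal hair cycling, and vitamin D and retinoic acid are known to act on enamel-forming epithelium.

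Dental tissue of *Med1* cKO and Ctrl mice was compared, both on the C57BL/6 background and at an age of 4 weeks. In cKO mice, Cre recombinase driven by the *Krt14* promoter deletes floxed exons of *Med1* in epithelial cells, so other cells in a dissected tissue keep the gene, and Ctrl mice were littermates without Cre. Tissue was taken from the cervical loop, the growing end of the incisor, as a head part (CLH), which holds dental epithelial stem cells, and a tail part (CLT), which holds their progenies. Each of the 4 groups (Ctrl and cKO for both CLH and CLT) had 2 libraries. The study describes the libraries as biological duplicates from independent litters, with cervical loop tissues pooled within a group, so p-values measure the spread between such pools. Whether a library's number in the labels marks its litter is not given in the sources used here.

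Total reads per library, recovered from the RPKM steps, ranged from 26591612 to 34420180, with 82.2% to 85.6% of them on genes. The 2 Ctrl CLT libraries stood apart from each other, with 34.6% of tested genes and 10 of the 26 nuclear receptor genes differing over 1.5-fold in RPKM + 1 between them, against 0.763% to 1.12% of genes and 0 of the 26 in the other groups. Marker genes for several cell types differed between the CLT groups. The 7 ameloblast markers (the cells that secrete enamel) summed to 84584 and 37392 RPKM in the Ctrl CLT libraries and to 19.7 and 15.8 in cKO CLT, with none at 0, and the 5 odontoblast and bone markers to 1101 and 1198 in Ctrl CLT against 1.07 and 0.892 in cKO CLT, with *Ibsp* at 0 in both cKO CLT libraries. Thus the defining markers of both mineralizing cell types were near 0 in cKO CLT, although the labels call the tissue dental epithelial cells. The 12 hair shaft and inner root sheath markers summed to 4735 and 15.2 in Ctrl CLT beside 13733 and 14974 in cKO CLT, the 8 skeletal muscle markers to 580.2 and 38.1 against 1636 and 1831, the 7 fat cell markers to 258 and 7.22 against 700.3 and 648, and the 6 melanocyte markers to 134 and 10.3 against 414 and 414. For each of these 4 lists the library Ctrl CLT 1 lay between Ctrl CLT 2 and the cKO CLT libraries. So it did for cornified epidermis (372 and 4.14 in Ctrl CLT, 1072 and 1070 in cKO CLT) and sebaceous gland (37.9 and 8.73, 124 and 119). The sums of basal epithelium (1338 and 823, 1620 and 1860) and neural markers (41.1 and 36.8, 104 and 107) were also higher in cKO CLT. Lower there were the sums of leukocyte (118 and 161, 97.2 and 92.0), endothelial (56.8 and 89.4, 55.0 and 54.0) and mesenchyme markers (2556 and 3193, 2031 and 2295). Not every marker followed its sum. Basal *Itgb4* was lower in cKO CLT (34.8 and 21.6, 12.8 and 15.0). Leukocyte *Cd3e* (0.357 and 0.498, 1.44 and 1.53) and mesenchyme *Col3a1* (527 and 456, 874 and 979) were higher. Endothelial *Cdh5* and *Tek* overlapped. In the 4 CLH libraries the ameloblast sum was 12503 to 14318 and the hair sum 9.34 to 14.2. The part that these cell types or the library Ctrl CLT 1 have in any value below was not tested. In dissected tissue, fewer cells of a type and less RNA per cell cannot be told apart. *Med1* itself had 4.83 and 8.71 RPKM in Ctrl CLT beside 9.15 and 8.96 in cKO CLT, and 7.71 and 9.12 in Ctrl CLH beside 7.10 and 7.03 in cKO CLH. These are values over the whole gene, most of which lies outside the deleted exons, so they do not check the deletion, and cKO and Ctrl mean the libraries so labelled throughout.

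Levels of the 26 tested genes spanned from no reads to an RPKM of 76.2, and 6 of them (*Rarg*, *Thra*, *Nr1h2*, *Rxrb*, *Vdr* and *Rxra*) had at least 10 RPKM in every library. The filter's RPKM of 1 was reached by *Thrb* and *Rora* only in CLT libraries, and by *Nr0b1* only in Ctrl libraries. *Nr4a2* reached it in all groups but cKO CLT, and *Rxrg* in CLH and cKO CLT 1. These genes were tested through the groups where they are high, which favours calls in that direction. *Rarg*, the retinoic acid receptor best known from skin epithelium, was the highest in 3 of the 4 groups, with 56.0 and 54.9 in Ctrl CLH, 65.8 and 67.0 in cKO CLH, and with 41.7 and 55.0 in the CLT of Ctrl mice. In cKO CLT, *Vdr* was first with 73.5 and 76.2 and *Rarg* second with 50.0 and 56.3, and their libraries did not overlap. In Ctrl CLH, *Thra* came second with 29.4 and 27.1, above *Nr1h2* (26.6 and 24.7) and *Rxrb* (23.4 and 25.1), and the ranges of the latter pair overlapped. Below them, *Vdr*, *Nr1d2*, *Rxra* and *Rarb* lay close together with group means of 18.7, 18.4, 17.2 and 17.1, where *Vdr* and *Nr1d2* overlapped and *Rxra* and *Rarb* overlapped. In cKO CLT *Rxra* came next (31.9 and 33.9), followed by *Thra* (27.2 and 31.0), which overlapped with *Nr1h2* (22.1 and 27.8).

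**Figure D1:**
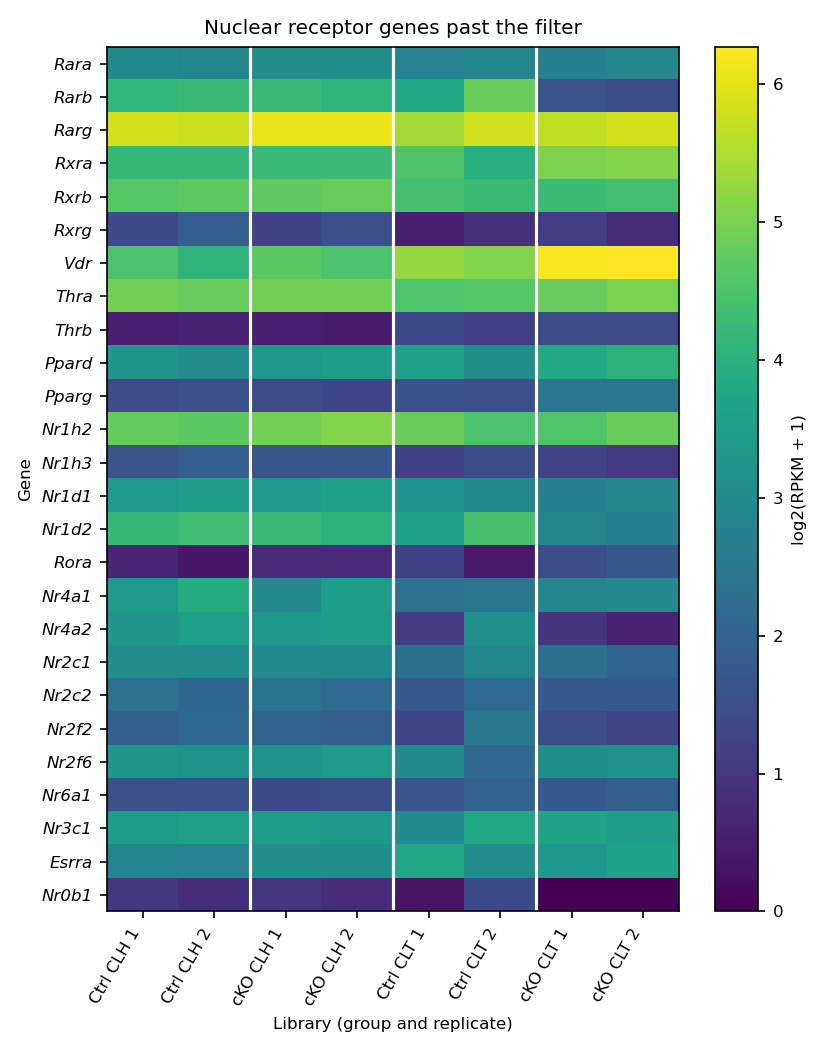
Levels of the 26 tested nuclear receptor genes (vertical axis) in each of the 8 libraries (horizontal axis), as colour on the log2(RPKM + 1) scale, with white lines between the 4 groups. *Rarg* is bright in all libraries, *Vdr* is brightest in cKO CLT (73.5 and 76.2 RPKM), and *Rarb* is dark only in cKO CLT (2.04 and 1.85).

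The first question was which nuclear receptor genes differed between cKO and Ctrl in the progeny tissue (CLT). *Vdr*, *Pparg* and *Rxra* were higher and *Rarb* and *Nr1d2* were lower in both cKO CLT libraries than in both Ctrl CLT libraries. No nuclear receptor gene passed the threshold of 0.05 on limma's adjusted p over all 14148 tested genes, of which 0.0777% were called higher and 1.68% lower. Of the 26, 4 were higher and 2 lower below an unadjusted p of 0.05, where 19.8% of all tested genes were higher and 16.4% lower. A voom model of the recovered reads also called 0 of the 26, with 5 higher and 3 lower below an unadjusted p of 0.05 (20.2% and 14.4% of all tested genes). The count depended on the control libraries, being 15 without Ctrl CLT 1 and 8 without Ctrl CLT 2, where the lone control library is assumed to vary like the cKO libraries. Of all tested genes 69.5% and 52.1% were called in these fits, so that neither count lay above the share over all genes. Among them, 7 genes were called in both cases, namely *Rarb*, *Vdr*, *Pparg*, *Rxra*, *Nr1d2*, *Nr4a1* and *Nr0b1*. Both cKO libraries lay above both Ctrl libraries for 9 of the 26 genes and below them for 5, beside 37.2% and 35.1% of all tested genes. The median log2 fold change of the 26 genes was 0.07 and that of all tested genes -0.01. For 11 of the 26 genes (42.3%) Ctrl CLT 1 lay between Ctrl CLT 2 and the cKO libraries, as it did for 54.1% of all tested genes.

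*Rarb* (chromosome 14, 16430840 to 16575210, mm10) encodes a retinoic acid receptor whose own gene is a textbook target of retinoic acid. Its RPKM was 12.4 and 28.0 in Ctrl CLT against 2.04 and 1.85 in cKO CLT, resting on 1008, 2067, 159 and 140 reads. The groups did not overlap, and the lower Ctrl library was again Ctrl CLT 1. The log2 fold change was -2.74 (SE 0.42, limma, adjusted p = 0.062), or -3.30 without Ctrl CLT 1 and -2.19 without Ctrl CLT 2. In CLH, *Rarb* had 16.6 and 17.6 RPKM in Ctrl against 17.9 and 16.0 in cKO, and these overlapped. Its sequence is shown for the element through which retinoic acid receptors are known to act on it, a direct repeat of the core motif AGGTCA or its variants GGGTCA or AGTTCA or GGTTCA with 5 bases between (a DR5). The stretch lies at chr14:16575507-16575535 (GRCm38.p6, minus strand, RefSeq), 59 to 31 bases before a RefSeq start of *Rarb*, and GENCODE M21 places it in the first exon and 5′ UTR of 2 longer *Rarb* transcripts. It is given 5′ to 3′ on the strand of the gene, with the core motifs in capitals.
Rarb: gggaagGGTTCAccgaaAGTTCActcgca
RefSeq promoter windows (250 bases before to 50 after the start) were found for 43 of the 47 genes, and none for *Thra*, *Hnf4g*, *Nr3c1* and *Nr5a1*. Searched on both strands, a DR5 of these core motifs was in the windows of 1 of the 43 genes, *Rarb*, and of 0.115% of the 27025 genes with a window. Repeats with 1, 3 or 4 bases between the core motifs were in 0 of the 43. Single core motifs, which are part of every such repeat, were in 23 of the 43 (53.5%) and in 46.9% of all genes, so their presence sets no member apart.

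The other retinoic acid receptor genes overlapped between the groups in CLT. *Rarg* had 41.7 and 55.0 RPKM in Ctrl CLT against 50.0 and 56.3 in cKO CLT, and *Rara* 5.88 and 6.39 in Ctrl against 5.72 and 6.49 in cKO. The log2 fold changes of 0.15 and -0.01 did not pass the test. Among their dimer partners, *Rxra* had 21.7 and 14.6 in Ctrl CLT against 31.9 and 33.9 in cKO CLT. Both cKO libraries were thus above both Ctrl libraries, and the log2 fold change was 0.84 (SE 0.23, limma, adjusted p = 0.098), or 1.11 without Ctrl CLT 1 and 0.57 without Ctrl CLT 2. *Rxrb* had 20.5 and 18.4 in Ctrl CLT against 18.6 and 20.2 in cKO CLT, and *Rxrg* 0.434 and 0.859 against 1.21 and 0.760. Both overlapped between the groups.

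*Vdr* (chromosome 15, 97854427 to 97908296) encodes the receptor for the hormonal form of vitamin D. It had 37.9 and 32.8 RPKM in Ctrl CLT against 73.5 and 76.2 in cKO CLT, on 3793 to 9052 reads. The groups were well apart, and both control libraries were close to each other for this gene. Its log2 fold change of 1.07 (SE 0.15, limma, adjusted p = 0.060) stayed at 1.17 when Ctrl CLT 1 was left out and at 0.96 when Ctrl CLT 2 was. The thyroid hormone receptor gene *Thra* had 22.5 and 23.5 in Ctrl CLT against 27.2 and 31.0 in cKO CLT, higher in both cKO libraries, and did not pass the test (log2 fold change 0.32). *Thrb*, the other thyroid hormone receptor gene, had 1.62 and 1.24 in Ctrl CLT against 1.86 and 1.81 in cKO CLT, also without overlap (log2 fold change 0.23).

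*Pparg* (chromosome 6, 115361221 to 115490401), a fatty acid receptor that drives fat cell and sebocyte differentiation, had 1.998 and 1.90 RPKM in Ctrl CLT against 4.49 and 4.47 in cKO CLT, on 100 to 250 reads. The libraries of each group were nearly equal and the groups did not overlap. The log2 fold change was 0.90 (SE 0.17, limma, adjusted p = 0.070), with 0.92 left after Ctrl CLT 1 was dropped and 0.87 after Ctrl CLT 2 was. The fat cell and sebaceous gland marker sums given above were higher in both cKO CLT libraries as well. The part that these cells have in the *Pparg* values was not tested. *Ppard*, a fatty acid receptor present in most tissues, had 10.9 and 7.74 in Ctrl CLT against 13.0 and 15.4 in cKO CLT, with no overlap (log2 fold change 0.58). Of the oxysterol receptors that regulate cholesterol export, *Nr1h2* had 27.6 and 21.3 in Ctrl CLT against 22.1 and 27.8 in cKO CLT, and *Nr1h3* 1.36 and 1.83 against 1.40 and 1.08. Both overlapped.

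**Figure D2:**
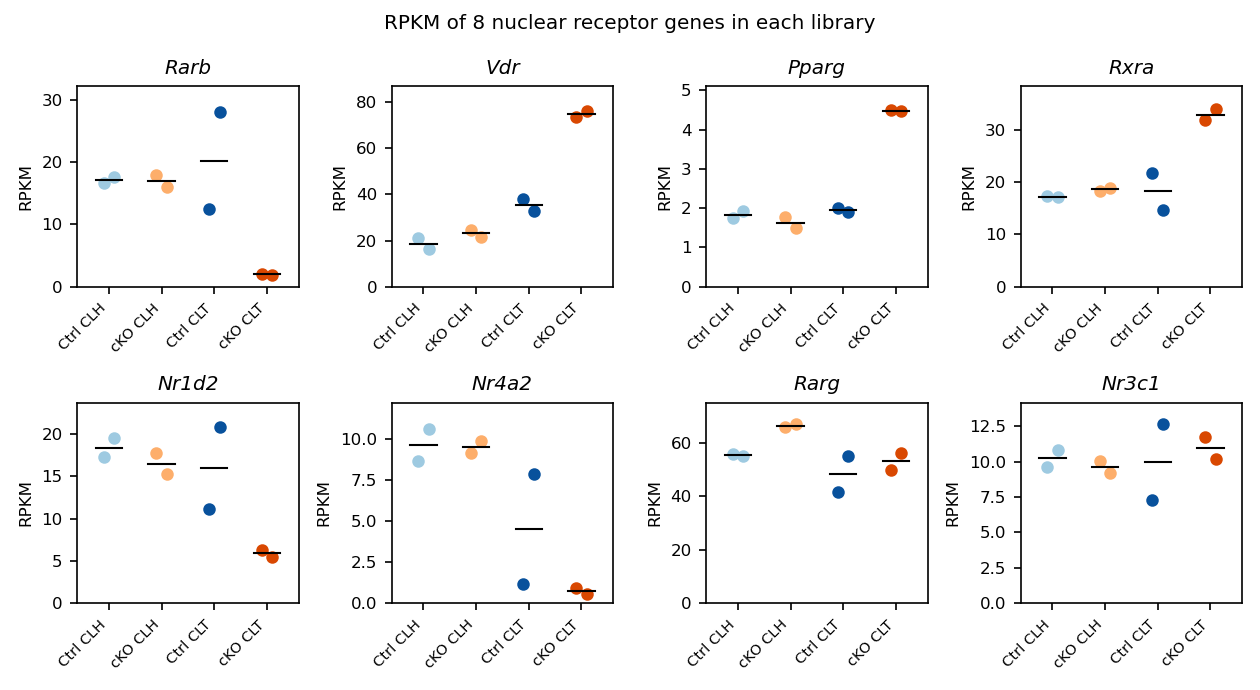
RPKM (vertical axis, from 0) of *Rarb*, *Vdr*, *Pparg*, *Rxra*, *Nr1d2*, *Nr4a2*, *Rarg* and *Nr3c1* in the 4 groups (horizontal axis), with a point for each library and a line at the group mean. In cKO CLT *Rarb* lies at 2.04 and 1.85 and *Vdr* at 73.5 and 76.2, apart from all other libraries. *Nr4a2*, *Rarb* (12.4 and 28.0) and *Nr1d2* show wide gaps between both Ctrl CLT libraries.

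Receptors of the circadian clock were next. *Nr1d2*, which encodes the heme-binding repressor REV-ERBβ, had 11.2 and 20.8 RPKM in Ctrl CLT against 6.28 and 5.51 in cKO CLT. Both cKO libraries were lower, but the log2 fold change of -1.24 did not pass the test and ran from -1.66 without Ctrl CLT 1 to -0.82 without Ctrl CLT 2. Its relative *Nr1d1* had 8.26 and 6.60 in Ctrl CLT against 5.59 and 6.45 in cKO CLT, lower without overlap by a log2 fold change of -0.26. *Rora*, an activator that shares DNA sites with these repressors, had 1.33 and 0.366 in Ctrl CLT against 1.84 and 2.34 in cKO CLT. Its groups did not overlap (log2 fold change 0.79), and the values rest on 16 to 105 reads. *Rora* passed the filter only through Ctrl CLT 1 and both cKO CLT libraries.

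The NR4A genes encode receptors that are induced quickly by many stimuli and act without a known classical ligand. *Nr4a2* had 1.14 and 7.90 RPKM in Ctrl CLT against 0.927 and 0.548 in cKO CLT. One control library was thus close to the cKO libraries, and the log2 fold change of -1.34 became -2.37 without Ctrl CLT 1 and -0.31 without Ctrl CLT 2. *Nr4a1* had 4.17 and 4.68 in Ctrl CLT against 6.32 and 6.78 in cKO CLT, higher in both cKO libraries (log2 fold change 0.48), without passing the test. *Nr0b1*, which encodes DAX1, a receptor without a DNA-binding domain of the usual kind that represses steroidogenic genes, had 0.248 and 1.68 in Ctrl CLT on 13 and 80 reads, and no read in either cKO CLT library. Against a floor of 3 reads per library this is at least 15.9-fold lower in cKO, at least 27.7-fold without Ctrl CLT 1 and at least 4.10-fold without Ctrl CLT 2. The median log2 fold change of the 26 genes stayed at 0.07 with *Nr0b1* set at this bound, as it had to, since *Nr0b1* already lay below it. *Nr0b1* passed the filter only through Ctrl CLH 1 (1.04) and Ctrl CLT 2 (1.68), so it was tested through Ctrl libraries.

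Steroid receptors and the remaining members showed mostly overlapping groups in CLT. *Nr3c1*, the glucocorticoid receptor gene, had 7.32 and 12.6 RPKM in Ctrl CLT against 11.8 and 10.2 in cKO CLT, both cKO values inside the control range. *Esr1*, the estrogen receptor α gene, stayed under the filter with 0.269 and 0.340 in Ctrl CLT against 0.496 and 0.755 in cKO CLT. *Esrra*, an orphan receptor that drives mitochondrial genes, had 11.8 and 7.48 against 9.18 and 11.4. Of the orphan receptors, *Nr2f6* had 7.07 and 3.41 in Ctrl CLT against 7.78 and 8.28 in cKO CLT, without overlap. The groups of *Nr2f2* (1.49 and 4.61 against 1.78 and 1.42), which encodes COUP-TFII, overlapped. They also overlapped for *Nr2c1* (3.99 and 6.66 against 3.998 and 3.13), *Nr2c2* (2.36 and 3.55 against 2.43 and 2.40) and *Nr6a1* (2.14 and 2.92 against 2.43 and 2.77), which encode the testicular receptors TR2 and TR4 and the germ cell nuclear factor.

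In the stem cell tissue (CLH), the differences between cKO and Ctrl were small. None of the 26 genes passed the adjusted limma test, with 3 higher and 0 lower below an unadjusted p of 0.05 (4.83% and 2.42% of all tested genes) and a smallest adjusted p of 0.688. A voom model of the recovered reads also called 0, with 4 higher and 1 lower below an unadjusted p of 0.05 (4.87% and 3.47% of all tested genes). Over all tested genes 0% were called higher and 0% lower. The log2 fold changes ran from -0.39 (*Nr4a1*) to 0.31 (*Esrra*), with SEs of 0.05 to 0.26, and their median of 0.01 stood beside -0.01 over all tested genes. Both cKO libraries lay above both Ctrl libraries for 10 of the 26 genes and below for 2 (*Nr6a1* and *Nr2c1*), beside 19.9% and 18.8% of all tested genes.

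The smallest p-value in CLH was that of *Rarg*, with 56.0 and 54.9 RPKM in Ctrl against 65.8 and 67.0 in cKO (log2 fold change 0.26, SE 0.05, limma, adjusted p = 0.688). *Esrra* followed with 6.06 and 5.82 in Ctrl against 7.49 and 7.77 in cKO (0.31, SE 0.08, limma, adjusted p = 0.688). *Nr1h2* was the next, with 26.6 and 24.7 against 29.5 and 33.4 (0.28, SE 0.08, limma, adjusted p = 0.688). In all of these both cKO libraries were above both Ctrl libraries. The same order held for *Vdr* (21.1 and 16.2 against 24.7 and 21.7), *Rxra* (17.2 and 17.2 against 18.3 and 18.8), *Rara* (7.02 and 6.25 against 7.54 and 7.50) and *Rxrb* (23.4 and 25.1 against 25.6 and 27.1). *Ppard* had 8.65 and 7.62 against 9.11 and 10.5, *Rora* 0.583 and 0.317 against 0.703 and 0.679, and *Thra* 29.4 and 27.1 against 29.5 and 29.5. *Pparg* (1.76 and 1.91 against 1.76 and 1.48), *Nr3c1* (9.66 and 10.8 against 10.1 and 9.23) and *Esr1* (0.202 and 0.233 against 0.288 and 0.110) overlapped. So did *Nr4a1* (9.52 and 13.7 against 6.80 and 10.5) and *Nr4a2* (8.64 and 10.6 against 9.17 and 9.91).

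**Figure D3:**
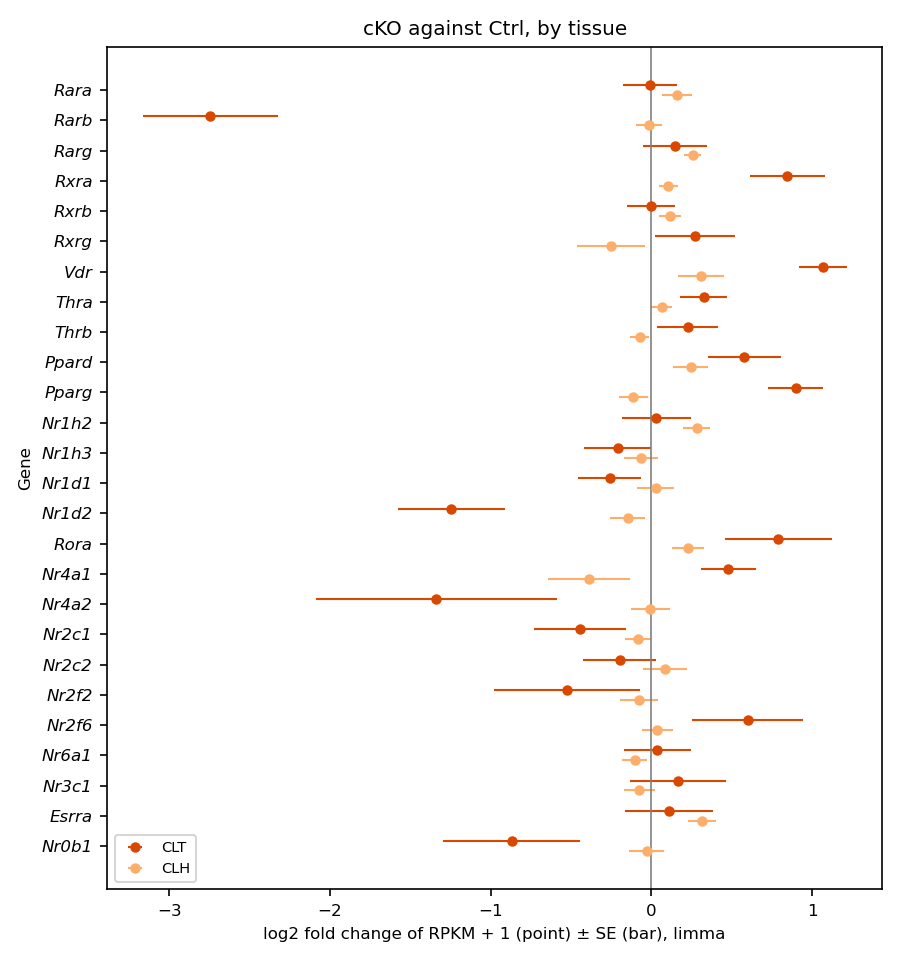
Log2 fold change of RPKM + 1 between cKO and Ctrl (horizontal axis) for the 26 tested genes (vertical axis), as points with limma's SE as bars, dark for CLT and light for CLH. CLH points lie between -0.39 and 0.31, and CLT points between -2.74 (*Rarb*) and 1.07 (*Vdr*).

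Whether cKO and Ctrl differed by another amount in CLT than in CLH was asked with an interaction term fitted to the 8 libraries together. That fit uses the same spread of a gene for all groups, although the Ctrl CLT libraries stood further apart than the others. It called 2 of the 26 genes, 1 in each direction, where 8.05% of all tested genes were called higher and 9.58% lower. *Rarb* had an effect lower in CLT than in CLH by -2.73 on the log2 scale (SE 0.47, limma, adjusted p = 0.019). *Pparg* had an effect higher in CLT by 1.01 (SE 0.18, limma, adjusted p = 0.020). Within the CLT libraries alone, neither gene passed the test of cKO against Ctrl (limma, adjusted p = 0.062 and 0.070). These 2 calls were lost when any one of the Ctrl CLH, cKO CLH or cKO CLT libraries was left out (0 called, with the estimates between -2.80 and -2.65 for *Rarb* and between 0.93 and 1.09 for *Pparg*). Over all tested genes the share called fell from 17.6% to between 1.4% and 1.99% in these fits. Without Ctrl CLT 1 there were 14 calls (63.1% of all tested genes) and without Ctrl CLT 2 there were 8 (46.6%), and both include *Rarb* and *Pparg*. The estimates for *Vdr* (0.76) and *Rxra* (0.74) did not pass (adjusted p = 0.055 and 0.083, limma).

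A further comparison asked how the receptors differed between the progeny tissue and the stem cell tissue. In Ctrl mice, none of the 26 genes passed the test of CLT against CLH, with 2 higher and 2 lower below an unadjusted p of 0.05 by limma (4.15% and 9% of all tested genes) and also by voom (3.56% and 11.1%), which called 0 too. Over all tested genes 0.00707% were called higher and 0% lower. Both CLT libraries were higher for 4 of the 26 genes and lower for 9, beside 15.2% and 36.8% of all tested genes. The median of all tested genes was itself below 0 in this comparison, at -0.13, against -0.12 for the 26 genes. Without Ctrl CLT 2 there were 14 calls (5 higher and 9 lower), beside 53.3% of all tested genes. Leaving out each of the other libraries gave 0, beside 3.31% of all tested genes without Ctrl CLT 1 and 0% without either Ctrl CLH library.

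*Nr4a1* had the smallest p-value there, with 9.52 and 13.7 RPKM in Ctrl CLH and 4.17 and 4.68 in Ctrl CLT (log2 fold change -1.20, SE 0.23, limma, adjusted p = 0.310). *Vdr* went from 21.1 and 16.2 in Ctrl CLH to 37.9 and 32.8 in Ctrl CLT (0.89, SE 0.19, limma, adjusted p = 0.313). *Thrb* was the next, with 0.470 and 0.517 in Ctrl CLH and 1.62 and 1.24 in Ctrl CLT (0.70, SE 0.22, limma, adjusted p = 0.362). In each of these 3 genes the tissues did not overlap, though *Thrb* had passed the filter only through CLT libraries. *Rxrg* also did not overlap, with 1.598 and 2.68 in Ctrl CLH and 0.434 and 0.859 in Ctrl CLT. *Rarb* did overlap, since 16.6 and 17.6 in Ctrl CLH lay between the 12.4 and 28.0 of Ctrl CLT.

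In cKO mice, where the libraries of each group were close to each other, 22 of the 26 genes were called between CLT and CLH, 8 higher and 14 lower in CLT. Of all tested genes 28.9% were called higher and 45.1% lower, so most genes of any kind were called. Median-of-ratios scaling gave 9 higher and 9 lower calls, since *Rxrg*, *Nr1h2*, *Rara*, *Rarg* and *Rxrb* were no longer called lower and *Nr3c1* was called higher. For all genes the split moved from 4084 higher and 6384 lower to 5233 and 4928. The median log2 fold change was -0.18 over all tested genes and -0.32 over the 26, and single values are to be read against the first of these. Both CLT libraries lay above both CLH libraries for 9 genes and below for 16, beside 34.5% and 52.3% of all tested genes. With all 8 libraries in one fit, 12 of the 26 were called, beside 54.1% of all tested genes.

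The genes that were higher in cKO CLT than in cKO CLH were led by *Vdr*, from 24.7 and 21.7 to 73.5 and 76.2 RPKM, with a log2 fold change of 1.65 (SE 0.09, limma, adjusted p = 7.8e-07). *Pparg* rose from 1.76 and 1.48 to 4.49 and 4.47 (1.07, SE 0.11, limma, adjusted p = 2.9e-05). *Thrb* rose from 0.470 and 0.372 to 1.86 and 1.81 (1.0, SE 0.10, limma, adjusted p = 3.6e-05). The first and last of these were also higher in Ctrl CLT than in Ctrl CLH in every library, while *Pparg* had 1.76 and 1.91 in Ctrl CLH beside 1.998 and 1.90 in Ctrl CLT. *Rora* rose from 0.703 and 0.679 to 1.84 and 2.34 (0.87, SE 0.11, limma, adjusted p = 0.00018), and *Rxra* from 18.3 and 18.8 to 31.9 and 33.9 (0.79, SE 0.08, limma, adjusted p = 4.6e-05). *Ppard*, *Nr6a1* and *Esrra* rose less, by 0.49, 0.39 and 0.38 (SE 0.11, 0.11 and 0.12, limma, adjusted p = 0.0044, 0.010 and 0.016). *Thrb* and *Rora* had passed the filter only through CLT libraries, which favours their being called higher there.

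The lower genes were led by *Nr4a2*, which fell from 9.17 and 9.91 RPKM in cKO CLH to 0.927 and 0.548 in cKO CLT, with a log2 fold change of -2.61 (SE 0.13, limma, adjusted p = 3.5e-07). *Rarb* fell from 17.9 and 16.0 to 2.04 and 1.85, by nearly the same amount (-2.61, SE 0.10, limma, adjusted p = 9.6e-08). Both clock repressors were lower, *Nr1d2* from 17.8 and 15.2 to 6.28 and 5.51 (-1.34, SE 0.11, limma, adjusted p = 9.1e-06) and *Nr1d1* from 9.25 and 11.1 to 5.59 and 6.45 (-0.67, SE 0.12, limma, adjusted p = 0.00096). *Nr0b1* went from 0.991 and 0.735, on 60 and 39 reads, to no read (adjusted p = 0.00011, limma).

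Of the 4 tested orphan receptors of the NR2 branch, 3 were called lower too, beside 45.1% of all tested genes. *Nr2c1* fell from 7.20 and 6.81 to 3.998 and 3.13 (-0.82, SE 0.12, limma, adjusted p = 0.00031), *Nr2f2* from 2.999 and 2.76 to 1.78 and 1.42 (-0.58, SE 0.11, limma, adjusted p = 0.0017), and *Nr2c2* from 4.42 and 3.57 to 2.43 and 2.40 (-0.54, SE 0.12, limma, adjusted p = 0.0028). The oxysterol receptor gene *Nr1h3* fell from 2.21 and 2.26 to 1.40 and 1.08 (-0.53, SE 0.11, limma, adjusted p = 0.0026). The 5 calls that were lost under median-of-ratios scaling had log2 fold changes of -0.42 (*Rxrb*, SE 0.09), -0.40 (*Rxrg*, SE 0.15), -0.33 (*Nr1h2*, SE 0.12), -0.32 (*Rarg*, SE 0.09) and -0.27 (*Rara*, SE 0.10). Their adjusted p-values by limma were 0.0026, 0.043, 0.036, 0.012 and 0.041. The remaining 4 genes, *Thra* (-0.02), *Nr3c1* (0.16), *Nr2f6* (-0.12) and *Nr4a1* (-0.33), were not called, and *Thra* and *Nr2f6* changed sign under that scaling (0.18 and 0.07).

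**Figure D4:**
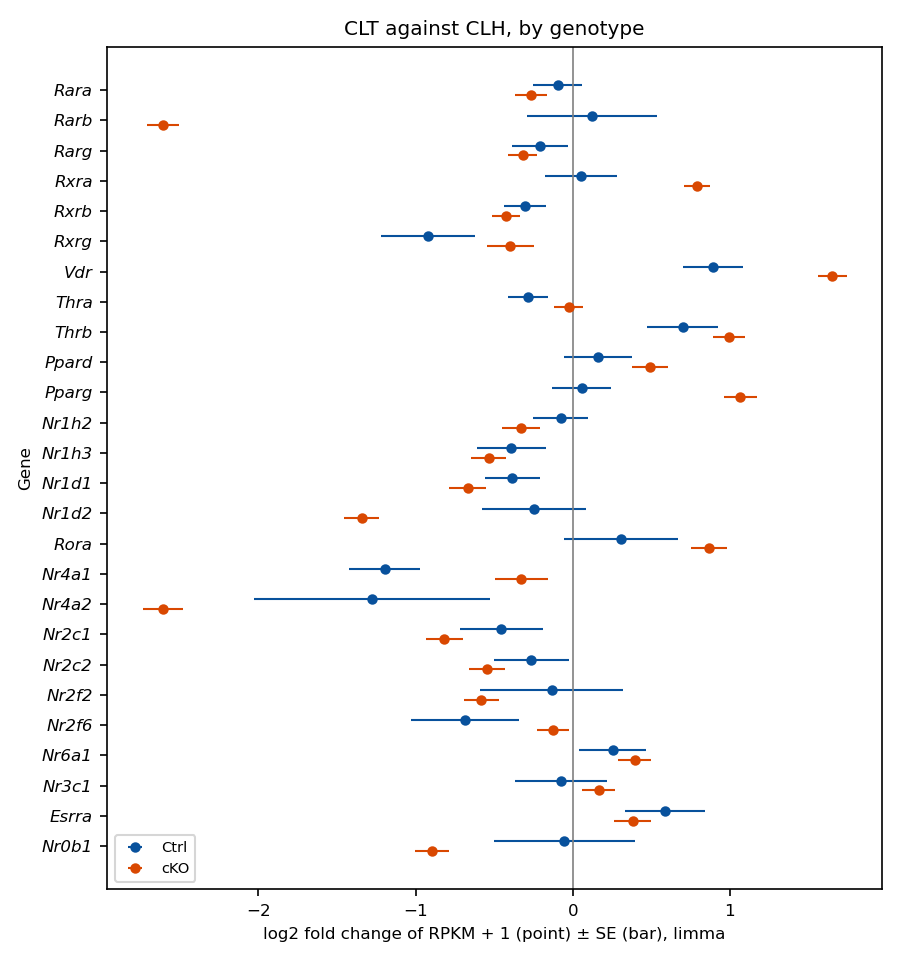
Log2 fold change of RPKM + 1 between CLT and CLH (horizontal axis) for the 26 tested genes (vertical axis), as points with limma's SE as bars, blue for Ctrl and orange for cKO. In cKO *Nr4a2* and *Rarb* lie at -2.61 and *Vdr* at 1.65, and the bars are shorter than in Ctrl.

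Genes that make, carry or break down the ligands, and genes that the receptors are known to control, were read from lists of their own. Of the 17 retinoid handling genes, 16 were tested, and in CLT 0 were called between cKO and Ctrl by limma (below an unadjusted p of 0.05, 5 were higher and 4 lower, against the shares of 19.8% and 16.4% over all tested genes). In cKO, 6 of them were called higher and 9 lower in CLT than in CLH, beside 28.9% and 45.1% of all tested genes. *Cyp26a1*, which encodes the main enzyme that breaks down retinoic acid and is itself induced by it, had 10.1 and 35.1 RPKM in Ctrl CLT, 0.421 and 0.391 in cKO CLT, 64.2 and 81.2 in Ctrl CLH against 51.8 and 63.9 in cKO CLH. Like *Rarb*, it was lowest in cKO CLT, and between cKO CLH and cKO CLT it fell by 5.38 on the log2 scale (SE 0.12, limma, adjusted p = 3.2e-09). *Cyp26b1* of the same list had 2.45 and 3.57 in Ctrl CLT against 5.70 and 5.52 in cKO CLT. Between cKO CLH and cKO CLT it was called higher and *Cyp26c1* lower, both named after their values were seen. *Rbp2*, a cellular retinol carrier, rose the most there, from 0.353 and 0.252 to 13.3 and 13.1 (3.45, SE 0.10, limma, adjusted p = 1.8e-08). In the interaction, 8.05% of all tested genes were called higher and 9.58% lower. There, *Cyp26a1* was called with -3.51 (SE 0.72, limma, adjusted p = 0.027) and *Dhrs9*, a retinol dehydrogenase gene, with 2.45 (SE 0.55, limma, adjusted p = 0.034). *Dhrs9* had 1.48 and no read in Ctrl CLT against 7.36 and 7.22 in cKO CLT. The other 2 calls of this list, named after their values were seen, were *Aldh1a3* and *Rdh1*. *Aldh1a3*, which makes retinoic acid, was lower (33.8 and 53.4 in Ctrl CLT, 14.9 and 14.6 in cKO CLT). *Rdh1* was higher (0.896 and 0.135 against 3.86 and 2.95). *Rdh1* passed the filter only through both cKO CLT libraries, and *Dhrs9* and *Rbp2* only through these and Ctrl CLT 1. Such a filter favours calling these genes higher in cKO CLT. These 4 calls were lost when any one of the Ctrl CLH, cKO CLH or cKO CLT libraries was left out. The adjusted p then ran from 0.0993 to 0.113 for *Cyp26a1* and from 0.119 to 0.133 for *Dhrs9* (limma).

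**Figure D5:**
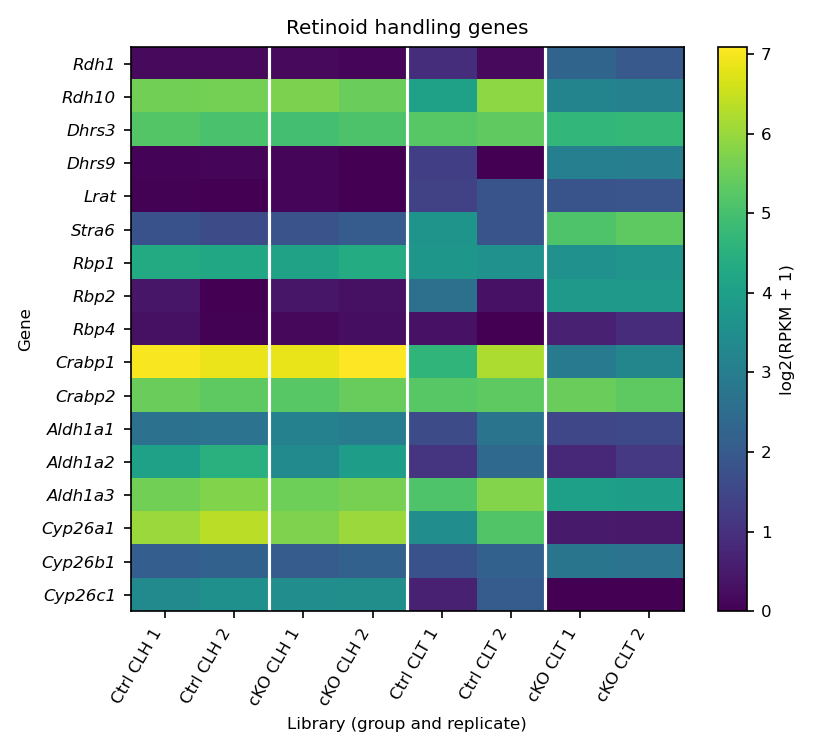
Levels of the 17 retinoid handling genes (vertical axis) in each of the 8 libraries (horizontal axis), as colour on the log2(RPKM + 1) scale, with white lines between the 4 groups. *Cyp26a1* falls from bright in CLH to dark in cKO CLT (0.421 and 0.391 RPKM), while *Stra6* is brightest in cKO CLT (34.0 and 39.5) with Ctrl CLT 1 (11.7) above Ctrl CLT 2 (2.57).

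Of the 10 vitamin D handling and target genes only 3 were tested. *Calb1*, the calcium-binding protein calbindin and a known vitamin D target that ameloblasts express, had 504 and 614 RPKM in Ctrl CLT against 0.162 and 0.0637 in cKO CLT. It was called lower in cKO CLT (log2 fold change -8.97, SE 0.17, limma, adjusted p = 0.0049) and in the interaction (-8.84, SE 0.17, limma, adjusted p = 2.9e-05), opposite in direction to *Vdr* and beside the ameloblast markers given above. *Trpv6*, a calcium channel gene and a vitamin D target in gut, had 9.18 and 2.31 in Ctrl CLT against 22.4 and 21.8 in cKO CLT, and was called higher in cKO CLT than in cKO CLH (2.62, SE 0.10, limma, adjusted p = 6.7e-08). *Cyp24a1*, the vitamin D degrading enzyme gene, had at most 0.198 in any library.

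All 16 PPAR target genes were tested, with a median log2 fold change of 0.89 between cKO and Ctrl in CLT, 0 calls by limma, and 8 higher and 0 lower below an unadjusted p of 0.05. At that p 19.8% of all tested genes were higher and 16.4% lower. In cKO, 11 of the 16 were called higher and 1 lower in CLT than in CLH, beside 28.9% and 45.1% of all tested genes. *Fabp4*, a fat cell lipid carrier that is also in the fat cell marker list, rose the most, by 6.17 (SE 0.13, limma, adjusted p = 2.4e-09), with 244 and 7.22 RPKM in Ctrl CLT against 663 and 608 in cKO CLT. *Adipoq* and *Cidec*, also called higher in cKO CLT than in cKO CLH, are in both lists too. *Cidec* passed the filter only through Ctrl CLT 1 and both cKO CLT libraries, which favours its call. The interaction called 4 higher and 0 lower, with *Cd36*, a fatty acid transporter, at the top (2.79, SE 0.65, limma, adjusted p = 0.036). It called 8.05% of all tested genes higher and 9.58% lower. *Cd36* had 8.67 and 2.32 in Ctrl CLT against 31.6 and 27.4 in cKO CLT. *Plin2*, *Lpl* and *Cpt1a*, named after their values were seen, were the other calls. All 4 calls were lost when any one library outside Ctrl CLT was left out, with adjusted p from 0.120 to 0.140 for *Cd36* (limma).

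The remaining lists are given by counts. Between cKO and Ctrl in CLT, 0 of 21 tested coregulators, 0 of 14 circadian clock genes, 0 of 7 thyroid hormone handling genes, 1 of 11 glucocorticoid genes (*Hsd11b2*, lower) and 2 of 10 LXR target genes (*Scd1* higher and *Pltp* lower) were called, the last 3 named after their values were seen. Over all tested genes 0.0777% were called higher and 1.68% lower there. At an unadjusted p under 0.05 the coregulators had 4 higher and 2 lower, the clock genes 5 and 1, the thyroid hormone genes 3 and 3, and the glucocorticoid genes and the LXR targets 4 and 1 each. The shares over all tested genes at that p were 19.8% higher and 16.4% lower. In CLH, none of the lists had a call by limma, and the counts at an unadjusted p under 0.05 were at most 1 in either direction, beside 4.83% and 2.42% of all tested genes. Between CLT and CLH, no list had a call in Ctrl, beside 0.00707% of all tested genes called higher and 0% lower. In cKO the calls were 3 higher and 8 lower for the coregulators, 7 and 6 for the clock genes, 4 and 3 for the thyroid hormone genes, 4 and 3 for the glucocorticoid genes and 4 and 3 for the LXR targets. The shares called over all tested genes were 28.9% higher and 45.1% lower. The interaction called 1 higher and 1 lower coregulator (*Carm1* and *Ppargc1a*), 3 higher clock genes (*Per2*, *Cry2* and *Cry1*) and 2 higher and 2 lower thyroid hormone genes (among them *Thrsp* and *Slc16a10*, higher, and *Dio3*, lower). It also called 1 higher and 1 lower glucocorticoid gene (*Hsp90ab1* and *Hsd11b2*) and LXR target (*Scd1* and *Pltp*). Over all tested genes it called 8.05% higher and 9.58% lower. *Thrsp* passed the filter only through both cKO CLT libraries, and *Slc16a10* only through these and Ctrl CLT 1, which favours calling them higher. Of the 22 genes of all lists called in the interaction, 18 were called in none of the 6 fits that left out a library other than Ctrl CLT 1 or 2, and 1, *Calb1*, in all of them. *Ppargc1a*, a coactivator of PPARs, had 3.55 and 4.40 RPKM in Ctrl CLT against 1.005 and 1.19 in cKO CLT.

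The 21 genes under the filter reached an RPKM of at most 1.07 in any library, and 14 of them stayed under 0.5. The highest were *Ppara* (1.07, in cKO CLT), *Nr3c2* (0.826), *Esrrg* (0.802) and *Esr1* (0.755). *Ppara*, a fatty acid receptor of liver and muscle, had 0.531 and 0.395 in Ctrl CLT against 1.07 and 0.881 in cKO CLT, where the skeletal muscle markers were also high. *Nr4a3*, *Nr2f1* and *Pgr* reached 0.568, 0.541 and 0.508. *Pgr*, the progesterone receptor gene, had 0.460 and 0.508 in Ctrl CLH beside 0.327 and 0.413 in cKO CLH. In CLT it had 0.0992 and 0.169 in Ctrl, while one cKO library had no read and the other 0.0160. The rest were at or below 0.474, namely *Nr1i3* (0.474), *Esrrb* (0.346), *Nr5a2* (0.270), *Rorb* (0.236), *Esr2* (0.229), *Nr1h4* (0.168), *Nr1h5* (0.0732), *Nr5a1* (0.0344), *Nr2e1* (0.0183), *Nr2e3* (0.0178), *Hnf4a* (0.0133) and *Hnf4g* (0.0089). *Nr0b2* and *Nr1i2*, receptors known from liver, had no read in any library, which allows up to 3 reads per library at this depth.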

How the data were processed

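Per the labels' processing notes, the authors trimmed reads with Trim Galore 0.4.3.1, aligned them with STAR 2.6.0b-1 to mm10, counted them with featureCounts 1.6.3 and used DESeq2 2.11.40.2. They deposited RPKM for 23358 genes, with gene lengths. The annotation and strand setting are not given in the sources used here, so values of the 8 members that overlap another gene, such as *Esrra* and *Nr2c2*, are uncertain. RPKM multiplied by length gave whole reads for 100.0% of values checked (tolerance 0.02). 0 columns were left unused.

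From RPKM, log2(RPKM + 1) was tested with limma 3.58.1 (R 4.3.3; lmFit, eBayes with trend), which understates changes of low genes, over 14148 genes with RPKM of at least 1 in at least 2 libraries (Benjamini-Hochberg, threshold 0.05), each comparison within its 4 libraries and the interaction over all 8. With 2 libraries a group, limma borrows spread across genes. A floor of 3 reads covers counting error only. Alternatives were pseudocount 0.1, median-of-ratios scaling, no filter, 1 fit of all libraries, a replicate block, voom on recovered reads and leaving out each library. Scripts were tested on simulated data. Members passing the filter were all named, with fits for those called or, where 0 were called, the 3 smallest p-values. The members and lists were chosen with earlier results of these data known. Protein sequences were not analysed here. Some genes of the lists are not reported here by name.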

Additional observations from a re-analysis of the deposited data

Results flagged for a closer look

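The cKO effect differed between CLT and CLH in the interaction test for 2 of the 26 nuclear receptor genes, beside 17.6% of all tested genes, so that such calls were no more frequent among the 26. That test uses the same spread of a gene for all groups, although the Ctrl CLT libraries stood further apart than the others. *Rarb* had a difference of -2.73 on the log2 scale (limma, adjusted p = 0.019), with both cKO libraries below both Ctrl libraries in CLT and overlapping groups in CLH. *Pparg* had a difference of 1.01 (limma, adjusted p = 0.020), with both cKO libraries above both Ctrl libraries in CLT and overlapping groups in CLH. Over the alternatives the adjusted p ran from 4.0e-07 to 0.094 for *Rarb* and from 0.00056 to 0.112 for *Pparg*. With 2 libraries in each group, no group was large enough for a check of single outlying libraries.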

How the results depend on the processing

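Of the counts of nuclear receptor genes called, that of cKO against Ctrl in CLT (0) became 7 with all 8 libraries in 1 fit (43.7% of all tested genes) and 1 (*Rarb*) with the replicate block (12.3%), and ran from 0 to 15 when each library was left out. CLT against CLH in Ctrl (0) became 3 with all 8 libraries in 1 fit (5.92%) and ran from 0 to 14. CLT against CLH in cKO (22) became 12 with all 8 libraries in 1 fit (54.1%). The difference of the cKO effect (2) became 4 without a filter on low values (7.86%) and ran from 0 to 14. In CLH the count was 0 under all settings run. The cause of these moves was not tested. Leaving out a library leaves 1 in its group, assumed to vary like the others. Of 634 recomputed fits of 61 log2 fold changes given, 505 kept their sign and side of the threshold, 83 lost a call, 37 gained one and 9 changed sign, the last all in values that no fit called. Between cKO and Ctrl in CLT, *Rara* (-0.01) became 0.035 by median-of-ratios scaling and 0.043 by voom and ran from -0.087 to 0.070 with each library left out, and *Rarg* (0.15) ran from -0.050 to 0.34. Between CLT and CLH in cKO, *Thra* (-0.02) became 0.18 by median-of-ratios scaling and 0.0035 by voom and ran from -0.12 to 0.066, and *Nr2f6* (-0.12) became 0.069 by median-of-ratios scaling. Voom called 0 of all tested genes between cKO and Ctrl in CLT. Libraries share only a number in the labels, and deviations of same-numbered libraries correlated between -0.19 and 0.31. The values were 0.20 between CLH and CLT in Ctrl and 0.31 in cKO, and at most 0.066 between genotypes. The main tests of CLT against CLH did not pair libraries. Beside the count in CLT given above, the block gave 23 and 2 calls in cKO and in the difference, beside 80.9% and 10.2% of all tested genes. Depth limits *Nr0b1*, *Rora* and the 21 genes under the filter.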
